A study of Mus musculus with 35 samples.

Results

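The genes of the small RNA machinery followed here in mouse embryonic stem cells (ESCs) were *Drosha*, *Dgcr8*, *Xpo5*, *Dicer1*, *Tarbp2* and the Argonaute genes *Ago1*, *Ago2*, *Ago3* and *Ago4*, chosen by name. All 9 were found among the 26127 rows of the expression table, the Argonaute genes under their older symbols *Eif2c1* to *Eif2c4*. Values are RPKM, the reads per kilobase of a gene's exons and mega-read of the library. Levels are set side by side between genes on this scale, but their order rests in part on the exons annotated. Merged exons came to 16571 bases for *Ago3*, 8268 for *Ago1*, 8031 for *Ago2* and 7569 for *Ago4*. *Tarbp2* had 4549 bases in 4 merged exons. Of the 9 genes, 8 passed the filter for testing (RPKM above 1 in at least 2 libraries); *Ago4*, which peaked at 0.253 RPKM, did not, and is described by its reads.

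A microRNA (miRNA) is first cut from its primary transcript in the nucleus by DROSHA, an RNase III enzyme, held on the hairpin by its RNA-binding partner DGCR8. Exportin 5, the product of *Xpo5*, carries the hairpin to the cytoplasm, where DICER1, helped by the double-stranded RNA-binding protein TARBP2, trims it to a duplex. One strand is loaded into an Argonaute protein and guides it to matching transcripts. DICER1 also cuts long double-stranded RNA into endogenous siRNAs without help from DROSHA or DGCR8, and AGO2 is the Argonaute that can slice a fully matched target. Many miRNAs of ESCs come from the miR-290 and miR-302 clusters. The study asked whether endogenous siRNAs hold transposons in check once DNA methylation is lost.

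Reads were obtained from RNA freed of its ribosomal part, in cells that the labels describe as ESCs of strain E14, whereas the study's methods describe a C57BL/6 line with both *Dnmt1* alleles flanked by loxP sites, which the controls carry too. *Dnmt1* encodes the maintenance DNA methyltransferase and was deleted by Cre recombinase induced with tamoxifen. WT and *Dnmt1* KO cells were each sampled at days 0, 1, 3, 6, 9, 11, 17 and 25, with 2 libraries per genotype and day and 3 at day 1, which makes 17 and 17 libraries. One further library came from *Dicer* KO cells, a CRISPR/Cas9 clone made in the same loxP background. The culture medium contained serum and LIF, and feeder cells were present in some cultures. No label says which libraries came from separate cultures, so the p-values measure the spread between these samples.

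*Dnmt1* itself was checked first. It lay between 14.1 and 34.8 RPKM in the WT libraries of days other than 6, and between 2.58 and 8.13 RPKM in the KO libraries of days 1 to 25 other than 6. At day 6 the order was turned: the libraries labelled WT held 3.22 and 3.40 RPKM and those labelled KO 20.2 and 20.4 RPKM. Day 6 is therefore given as labelled and was left out of averages over days. The libraries also fell into sets by the share of their reads in exons of genes, which was 20.2% to 22.0% in 20 libraries, here called low-share, and 44.1% to 48.8% in the other 15, here called high-share. The low-share set holds days 0, 3, 6 and 9 and the first pairs of day 1, and the high-share set holds days 11, 17 and 25, the third pair of day 1 and the *Dicer* KO library. Levels were compared within a set, and the model held a term for it, which only day 1 can estimate. Calls named below as lost without this term refer to a model whose spread includes the gap between the third pair of day 1 and the others; with that pair left out instead, the count of these genes called was the same in every comparison except WT day 9 against day 0. Depth was between 24.3 and 72.1 mega-reads. The 12 ESC markers summed to between 556 and 1683 RPKM in the WT and KO libraries and none was at 0; the 16 fibroblast markers summed to between 2.19 and 69.1 RPKM.

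The position of each gene and the sequences that the results refer to come before the values. In mouse build NCBIM37, that of the files, *Drosha* is at chr15:12754570-12865045 and *Dgcr8* at chr16:18254041-18289342. *Xpo5* is at chr17:46339804-46379248, *Dicer1* at chr12:105925952-105990162 and *Tarbp2* at chr15:102348623-102354107. *Ago2* is at chr15:72932055-73015377, while *Ago3* (chr4:126008948-126106800), *Ago1* (chr4:126112256-126145878) and *Ago4* (chr4:126166785-126210716) lie side by side on the minus strand. The values cover all exons of a gene, coding and untranslated. *Dgcr8* exons share 825 bases with *Trmt2a* on the other strand, and *Ago3* exons share 11 bases with *Gm17553*; whether counting used strand is not given in the sources used here, so reads in those stretches cannot be told apart.

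*Dgcr8* is also a substrate of the enzyme it serves, since its messenger RNA holds hairpins that DROSHA can cut. The annotation places one of them, *Mir1306*, on 79 bases inside a coding exon of *Dgcr8* (chr16:18284332-18284410 in NCBIM37). It is shown because reads over it count towards *Dgcr8*. The letters are from RefSeq (GRCm38.p6, chr16:18284239-18284317, minus strand) and are the same in NCBIM37; capitals mark the mature arms.
Mir1306 hairpin: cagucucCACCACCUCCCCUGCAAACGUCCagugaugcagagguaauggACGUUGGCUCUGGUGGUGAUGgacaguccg

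The miRNAs of the miR-290 and miR-302 clusters were not measured in these libraries. Their 3p strands are shown because the target genes described at the end were listed for them. Sequences are RefSeq mature miRNAs (GRCm38.p6), and capitals mark the seed, bases 2 to 8, by which a miRNA pairs with its targets.
mmu-miR-291a-3p: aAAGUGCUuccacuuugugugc
mmu-miR-294-3p: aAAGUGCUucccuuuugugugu
mmu-miR-295-3p: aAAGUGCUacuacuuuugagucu
mmu-miR-302b-3p: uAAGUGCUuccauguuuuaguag
mmu-miR-302d-3p: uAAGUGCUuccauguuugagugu
mmu-miR-290a-3p: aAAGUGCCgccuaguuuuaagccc
mmu-miR-291b-3p: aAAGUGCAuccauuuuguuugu
mmu-miR-302c-3p: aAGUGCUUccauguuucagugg
Of these 8 strands, 5 share the seed AAGUGCU. The seeds of 290a, 291b and 302c each occur once among them.

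In every one of the 35 libraries *Xpo5* was the highest of the 9 genes and *Ago4* the lowest. In WT cells at day 0, *Xpo5* stood at 11.5 ± 0.147 RPKM (SD, n = 2), followed by *Drosha* (4.85 ± 0.408), *Dgcr8* (3.34 ± 0.00651), *Tarbp2* (2.70 ± 0.0453) and *Dicer1* (2.70 ± 7.79e-05). The Argonaute genes were lower, with *Ago2* at 1.54 ± 0.185, *Ago1* at 1.47 ± 0.172, *Ago3* at 0.562 ± 0.00631 and *Ago4* at 0.0804 ± 0.00997 RPKM. Neighbours in this order did not overlap, except *Tarbp2* with *Dicer1* and *Ago2* with *Ago1*. In WT cells at day 25, among the high-share libraries, the order was *Xpo5* (28.6 ± 0.485), *Drosha* (24.0 ± 2.76), *Ago2* (15.0 ± 0.914), *Dgcr8* (8.42 ± 0.228), *Dicer1* (8.36 ± 0.292), *Tarbp2* (5.15 ± 0.756), *Ago1* (3.79 ± 0.192), *Ago3* (1.57 ± 0.0397) and *Ago4* (0.0668 ± 0.00501). Only *Dgcr8* and *Dicer1* overlapped there.

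**Figure D1:**
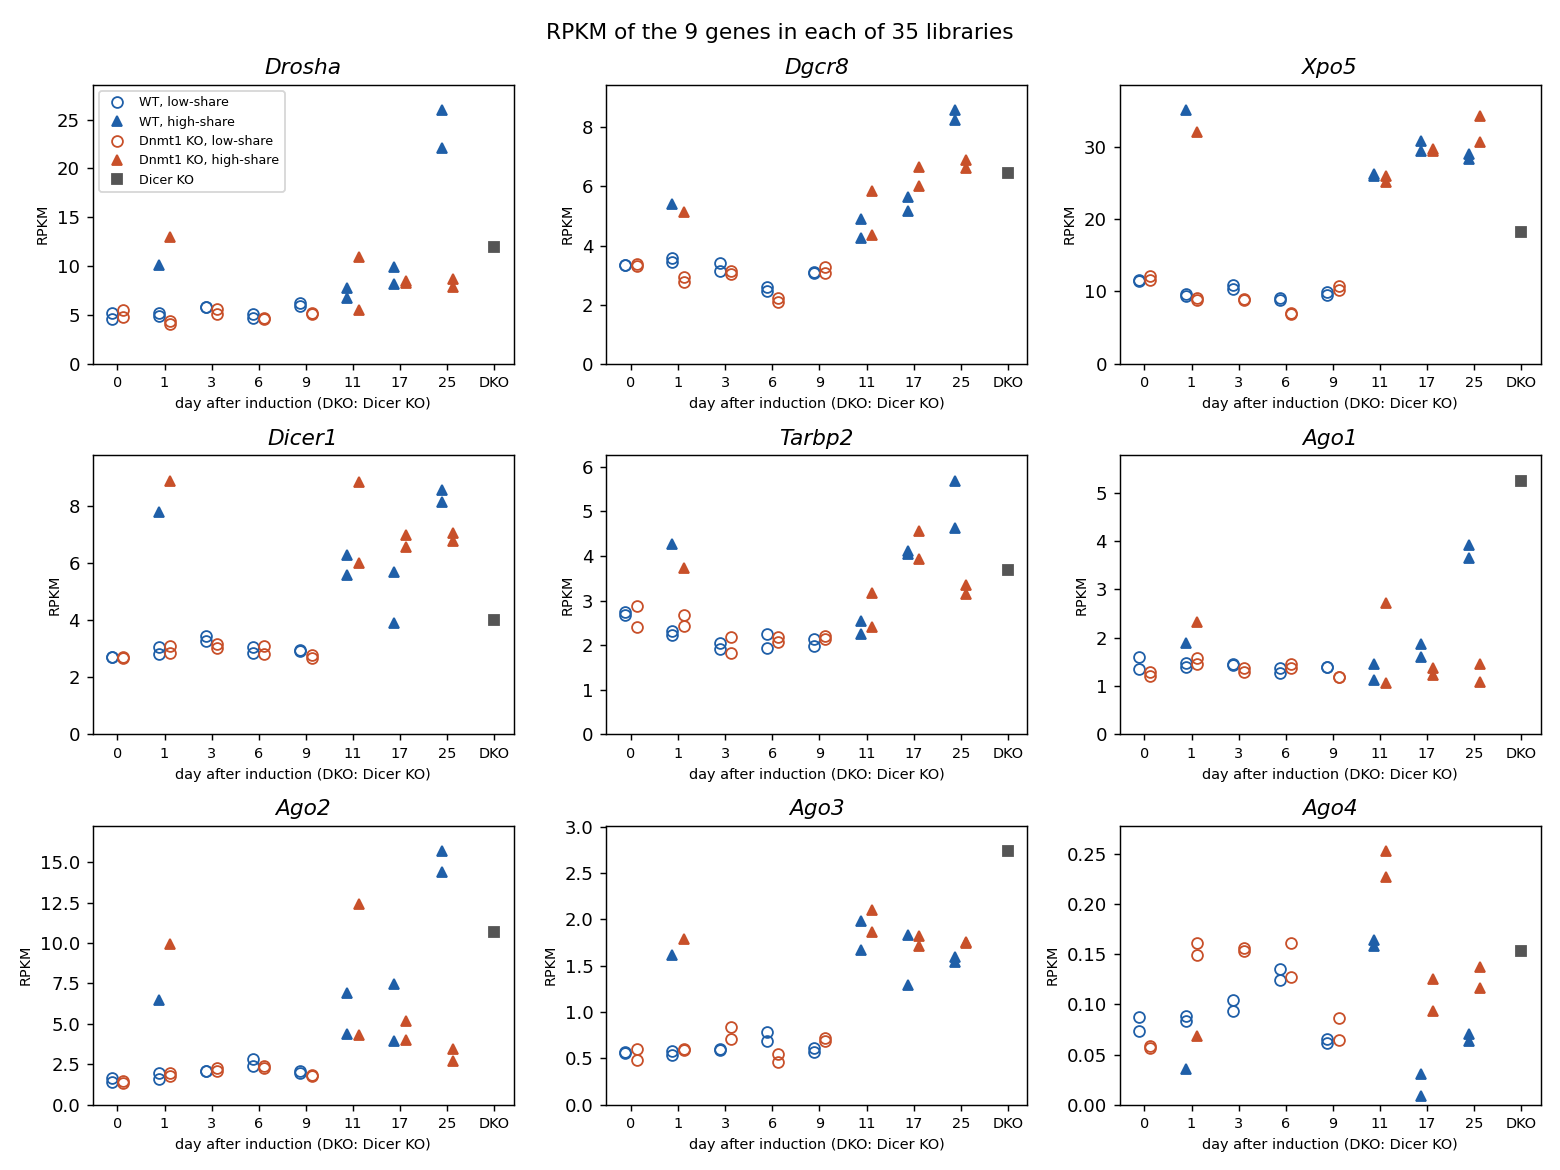
RPKM (vertical axes, each from 0) of the 9 genes in each of the 35 libraries by day after induction, with WT in blue, *Dnmt1* KO in orange, *Dicer* KO (DKO) in grey, low-share libraries as open circles and high-share libraries as filled triangles; day 6 is as labelled. *Ago2* runs from 1.36 to 2.82 in low-share libraries and reaches 15.7 in WT at day 25, where the KO libraries are at 3.42 and 2.70.

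The KO against control comparison asked, day by day, whether loss of DNMT1 went with a change in this machinery. By limma with Benjamini-Hochberg adjustment over 11615 genes, the largest differences were at day 25, where *Drosha*, *Ago1* and *Ago2* were lower in *Dnmt1* KO than in WT by more than 1 log2 unit. Before day 25 the calls were few and small: *Xpo5* fell at day 3, *Dicer1* rose at day 17, and none of the 8 genes was called at days 0, 1, 9 and 11. At day 6 as labelled, *Xpo5* and *Ago3* were lower in the libraries labelled KO.

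**Figure D2:**
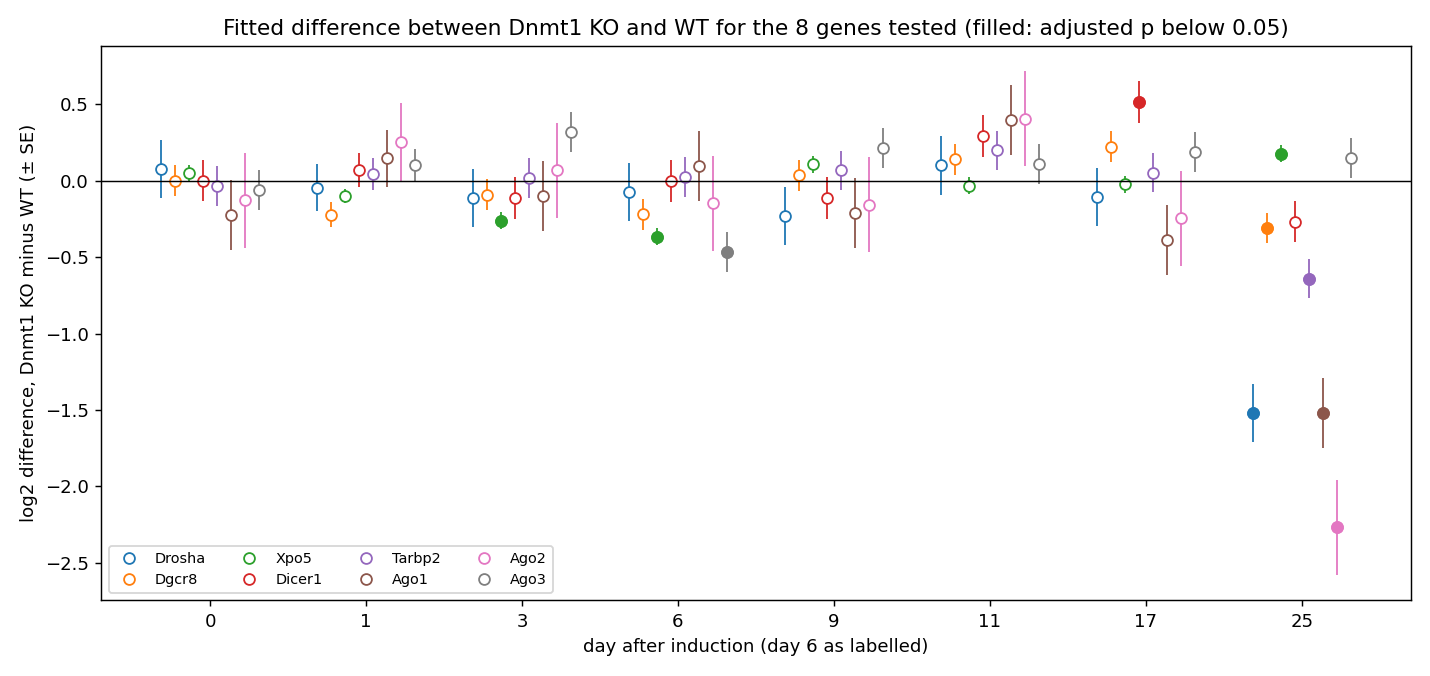
Fitted log2 difference between *Dnmt1* KO and WT (vertical axis, ± SE) for the 8 genes tested at each day (horizontal axis, day 6 as labelled); filled points have an adjusted p below 0.05. At day 25 *Ago2* is at -2.27, *Drosha* and *Ago1* are at -1.52, and at earlier days all 8 genes are between -0.47 and 0.51.

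At days 0, 1, 9 and 11 limma called 0 of the 8 genes, where it called 0%, 0.146%, 27.2% and 35% of all genes tested. At an unadjusted p below 0.05, the same model gave 0 of the 8 genes at days 0 and 9, 2 at day 1 (*Dgcr8* at -0.22 and *Xpo5* at -0.10 log2) and 1 at day 11 (*Dicer1* at 0.29 log2). With voom on recovered reads, 0 of the 8 were called at these days too. Without *Dnmt1* KO replicate 1 of day 11, 6 of the 8 were called at that day. At day 3, 1 of 8 was called and was lower in KO, as 3.81% of all genes were; at day 6 as labelled 2 of 8 were called against 27.1%, and at day 17 1 of 8 against 40.2%. A share of 1 or 2 genes in 8 is too coarse to set the machinery apart from all genes at these days.

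*Drosha* was the gene of nuclear processing that differed most. Its 20 low-share libraries ran from 4.05 to 6.22 RPKM; KO lay below WT without overlap at day 3 (5.11 and 5.55 against 5.79 and 5.76) and day 9 (5.18 and 5.09 against 6.22 and 5.86), differences that were not called (-0.12 and -0.23 log2, adjusted p = 0.787 and 0.402). At day 17 the WT libraries held 8.16 and 9.94 RPKM and the KO libraries 8.24 and 8.50. At day 25 WT stood apart, with 26.0 and 22.0 RPKM against 8.71 and 7.85 in KO. The KO libraries of day 25 thus lay in the range of the other high-share libraries (5.52 to 12.9), while the WT pair was above all of them. The fitted KO minus WT difference at day 25 was -1.52 log2 (SE 0.19, adjusted p = 6.61e-07), and it was called with and without the term for the library set.

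*Dgcr8*, the partner of DROSHA, moved less. At day 25 WT held 8.26 and 8.58 RPKM and KO 6.91 and 6.64, a difference of -0.31 log2 (SE 0.10, adjusted p = 0.00982). It was no longer called without the set term (adjusted p = 0.385) or without replicate 2 of WT (-0.28) or of KO (-0.28). At day 17 the order was the reverse, with 5.17 and 5.63 RPKM in WT and 6.65 and 6.0 in KO, and the difference of 0.22 log2 missed the threshold (adjusted p = 0.0806). The WT and KO libraries did not overlap at either day.

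*Xpo5* had the tightest replicates and small differences in both directions. At day 3 WT held 10.8 and 10.4 RPKM and KO 8.89 and 8.78 (-0.26 log2, SE 0.06, adjusted p = 0.00306); without WT replicate 1 the difference was -0.23 and was not called. At day 9 KO was above WT instead, with 10.7 and 10.2 against 9.95 and 9.46 RPKM, a difference of 0.11 log2 that was not called (adjusted p = 0.164). At day 25 *Xpo5* was the only one of the 8 genes called higher in KO, at 34.3 and 30.6 RPKM against 29.0 and 28.3 (0.18 log2, SE 0.06, adjusted p = 0.00793). That call was lost without KO replicate 1 (0.09) or WT replicate 2 (0.16), with voom on recovered reads (0.04 log2, adjusted p = 0.512) and with only the groups compared in the model (adjusted p = 0.0613). Without the set term neither the day 3 nor the day 25 call held (adjusted p = 1.0 and 0.838). At day 6 the libraries labelled KO held 6.90 and 6.96 RPKM and those labelled WT 8.79 and 9.13 (-0.37 log2, SE 0.06, adjusted p = 3.3e-05; 1.0 with no set term), with *Dnmt1* in the opposite order to the labels.

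*Dicer1*, the enzyme common to miRNAs and endogenous siRNAs, ran from 2.66 to 3.44 RPKM over the low-share libraries. At day 11 WT held 5.59 and 6.27 RPKM and KO 5.99 and 8.85, which overlapped. At day 17 *Dicer1* rose in KO, to 6.97 and 6.56 RPKM against 3.90 and 5.68 in WT (0.51 log2, SE 0.14, adjusted p = 0.00451). Here WT replicate 1 was the lowest of the 7 high-share WT libraries, and without it the difference was 0.25 log2 and was not called. The call was also lost when the set term was left out (adjusted p = 0.654) or only the groups compared were fitted (adjusted p = 0.0763). At day 25 the order turned, with 8.57 and 8.15 RPKM in WT and 7.07 and 6.79 in KO (-0.27 log2, SE 0.14, adjusted p = 0.0898, not called). It was called lower in KO with voom (-0.41 log2, adjusted p = 0.0208) and with only the groups compared (adjusted p = 0.0175). *Tarbp2*, its cofactor, was lower in KO at day 25, at 3.35 and 3.16 RPKM against 4.62 and 5.69 in WT (-0.64 log2, SE 0.13, adjusted p = 0.000171), with an adjusted p of 0.0561 when the set term was left out.

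*Ago2*, the slicing Argonaute, had the largest single difference. At day 25 WT held 15.7 and 14.4 RPKM and KO 3.42 and 2.70, a difference of -2.27 log2 (SE 0.31, adjusted p = 2.11e-06). *Ago2* also spread most between replicates: KO libraries at day 11 held 4.31 and 12.4 RPKM and WT libraries at day 17 held 3.95 and 7.44. The WT pair of day 25 was above every other WT or *Dnmt1* KO library, the next being the KO library of day 11 at 12.4. *Ago1* followed the same order at day 25, at 3.92 and 3.65 RPKM in WT against 1.45 and 1.08 in KO (-1.52 log2, SE 0.23, adjusted p = 6.75e-06). Both calls held without the set term.

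At day 25, 6 of the 8 genes were called, while 65.4% of all genes tested were, so the number of calls does not set the machinery apart. Of the 8, 5 were lower in KO, against 25.9% of all genes; 3 were lower by more than 1 log2 unit, against 7.5% of all genes. The median of the 8 genes was -0.48 log2 and that of all genes tested was 0.13 log2. Without the set term 3 of the 8 genes (*Drosha*, *Ago1* and *Ago2*) were called at day 25, when 20.9% of all genes were. Fibroblast markers summed to 5.49 and 5.70 RPKM in WT and to 3.08 and 3.59 in KO at that day, and ESC markers to 801 and 809 in WT and 984 and 989 in KO; their part in the result was not tested. In bulk RNA, fewer cells of a type and less RNA per cell cannot be told apart. Within the high-share set, the share of reads in exons also differed by genotype at day 25. It was 44.1% and 44.6% in WT and 48.8% and 48.4% in KO. The KO library of day 11 with *Ago2* at 12.4 RPKM had a share of 44.6%. The part of this share in the differences of day 25 was not tested.

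The difference at day 25 was set beside that at day 9, the last day of the low-share libraries. The KO effect differed between these days for 5 of the 8 genes, when 48.2% of all genes were called: *Ago2* (-2.11 log2, SE 0.44, adjusted p = 0.00057), *Ago1* (-1.31, SE 0.32, adjusted p = 0.00232), *Drosha* (-1.29, SE 0.27, adjusted p = 0.000593), *Tarbp2* (-0.71, SE 0.18, adjusted p = 0.00308) and *Dgcr8* (-0.34, SE 0.14, adjusted p = 0.0488). Without the set term only *Ago1* of the 8 was called (7.25% of all genes), and the call of *Dgcr8* was lost when any 1 of the 8 libraries was left out (-0.39 to -0.30 log2), with median centring (adjusted p = 0.0558) and with no filter on low values (adjusted p = 0.07). Library set and time differ together between these days and cannot be told apart. *Dicer1*, *Xpo5* and *Ago3* had differences between -0.16 and 0.07 log2 that were not called.

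WT cells alone were then compared over time within each set. From day 0 to day 9, 1 of the 8 genes was called, against 15% of all genes: *Xpo5* at -0.24 log2 (SE 0.06, adjusted p = 0.00572), with 11.6 and 11.4 RPKM at day 0 and 9.95 and 9.46 at day 9. It was not called without the set term, without WT day 0 replicate 1 (-0.23) or without WT day 9 replicate 2 (-0.21). From day 11 to day 25, 7 of the 8 genes rose, against 34.7% of all genes (68% were called in either direction). *Drosha* rose by 1.71 log2 (SE 0.19), *Ago1* by 1.5 (SE 0.23), *Ago2* by 1.43 (SE 0.31) and *Tarbp2* by 1.07 (SE 0.13), with adjusted p of 7.08e-08, 5.48e-06, 0.000331 and 2.09e-07. *Dgcr8* rose by 0.87, *Dicer1* by 0.49 and *Xpo5* by 0.13 log2; the call of *Xpo5* was lost when any 1 of the 4 libraries was left out (0.11 to 0.15 log2), with median centring (0.04 log2, adjusted p = 0.563) and with only the groups compared (adjusted p = 0.0716). When the set term was left out, 4 of the 8 were called, and 28.7% of all genes; *Ago2*, *Dicer1* and *Xpo5* were the calls lost. *Ago3* alone was not called (-0.20 log2, SE 0.13, adjusted p = 0.174), but was with median centring (-0.30 log2, adjusted p = 0.0443). Of all genes, 10.7% rose by more than 1 log2 unit, as did 4 of the 8. This comparison shares the WT libraries of day 25 with the KO comparison of that day, so the pair of results is not independent. ESC markers of the other 5 high-share WT libraries summed to between 1020 and 1683 RPKM, above the WT pair of day 25. Of 11 fibroblast markers tested, 7 rose and 1 fell from day 11 to day 25 (median 0.93 log2), and the sum over 16 went from 3.12 and 3.14 to 5.49 and 5.70 RPKM. The part of these markers in the result was not tested.

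The promoters of *Drosha* and *Ago1* are shown since these genes moved together at day 25 and DNMT1 acts on CG dinucleotides; methylation was not measured in these libraries. Each sequence holds the 250 bases before the RefSeq start (GRCm38.p6), with every CG in capitals. The motif searched was CG, which reads the same on both strands.
Drosha promoter, chr15:12824565-12824814, plus strand: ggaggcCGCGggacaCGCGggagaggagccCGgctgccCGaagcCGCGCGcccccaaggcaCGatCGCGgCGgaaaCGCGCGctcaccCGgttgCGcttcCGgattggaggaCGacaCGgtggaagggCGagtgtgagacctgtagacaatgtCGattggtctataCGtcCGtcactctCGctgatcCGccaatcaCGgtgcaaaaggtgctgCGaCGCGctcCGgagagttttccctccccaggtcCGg
Ago1 promoter, chr4:126468632-126468881, minus strand: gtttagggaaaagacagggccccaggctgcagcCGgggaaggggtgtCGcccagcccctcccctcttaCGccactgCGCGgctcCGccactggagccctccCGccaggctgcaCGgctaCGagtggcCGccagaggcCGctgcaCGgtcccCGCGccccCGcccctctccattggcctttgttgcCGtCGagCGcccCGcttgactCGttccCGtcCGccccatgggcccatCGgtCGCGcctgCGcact
*Drosha* held 33 CG and *Ago1* 26, while the median of 32851 promoters was 6. As many or more were found in 4.03% of promoters for *Drosha* and in 9.59% for *Ago1*. Among the other genes, *Xpo5* held 33, *Dicer1* 39, *Dgcr8* 36, *Ago3* 27 and *Tarbp2* 18 (as many or more in 21.7% of promoters). *Ago4*, with 46, was matched by 0.323% of promoters. Promoter sequence was found for 8 of the 9 genes and not for *Ago2*.

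*Ago3* and *Ago4* differed from the other Argonaute genes in that their KO libraries were, on average, above WT at each of days 3, 9, 11, 17 and 25. For *Ago3* the libraries did not overlap at day 3 (0.592 and 0.605 RPKM in WT, 0.710 and 0.837 in KO), day 9 (0.568 and 0.612 in WT, 0.682 and 0.717 in KO) and day 25 (1.54 and 1.60 in WT, 1.74 and 1.76 in KO). Single days were not called (adjusted p at least 0.134). With 2 libraries per genotype, non-overlap alone does not set a gene apart. At day 25 each of the 9 genes was without overlap, and at day 0 *Xpo5*, *Ago1* and *Ago4* were too. How often all genes fail to overlap was not counted. Over the 5 days *Ago3* was higher in KO by 0.20 log2 (SE 0.06, adjusted p = 0.00711). At day 6 the libraries labelled KO were lower instead, at 0.546 and 0.464 RPKM against 0.782 and 0.691 (-0.47 log2, SE 0.13, adjusted p = 0.0109), again with *Dnmt1* against the labels. That call was lost with no set term (adjusted p = 0.942), with a pseudocount of 1 (-0.21 log2, adjusted p = 0.0553) and without replicate 1 of the libraries labelled WT (-0.39) or KO (-0.37).

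*Ago4* was near the limit of detection, with between 2 and 68 reads in a library. At day 25 the WT libraries held 16 and 13 reads and the KO libraries 31 and 27 (0.0704 and 0.0633 against 0.138 and 0.116 RPKM). At day 17 WT held 2 and 7 reads and KO 22 and 29, and at day 11 WT held 39 and 48 and KO 54 and 58, so the WT library with 2 reads was under the floor of 3 reads used here as a limit of detection. The KO libraries were above WT without overlap at days 3, 11, 17 and 25 and below WT at day 0 (0.0584 and 0.0568 against 0.0874 and 0.0733 RPKM). With no filter on low values, *Ago4* was called higher in KO over the 5 days (0.42 log2, SE 0.05, adjusted p = 9.92e-07); at such levels this value depends on the pseudocount of 0.1. *Ago1*, which lies between *Ago3* and *Ago4* on chromosome 4, was lower in KO on average over the same days (-0.36 log2). At day 11 it was higher in KO instead (0.40 log2, not called), and without day 25 its average was -0.08 log2 and was not called.

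Averaged over days 3, 9, 11, 17 and 25, 4 of the 8 genes were called, against 57.8% of all genes. *Drosha* (-0.37 log2, SE 0.09, adjusted p = 0.000741), *Ago1* (-0.36, SE 0.10, adjusted p = 0.00423) and *Ago2* (-0.44, SE 0.14, adjusted p = 0.00983) fell, when 20.4% of all genes did, and *Ago3* rose. With no set term, 1 of the 8 was called (*Ago1*), as were 18.9% of all genes. The 3 falls depended on day 25: without that day, an alternative added after the data were seen, *Drosha* was at -0.09, *Ago1* at -0.08 and *Ago2* at 0.02 log2, with none called. *Ago3* was called without day 25 too, but not with day 6 included as labelled (0.09 log2, adjusted p = 0.20) or with each library centred on its median (0.12 log2, adjusted p = 0.0826). With that centring *Xpo5* (-0.08 log2, adjusted p = 0.00572) and *Tarbp2* (-0.14, adjusted p = 0.0376) were called lower, and without *Dnmt1* KO day 11 replicate 1 *Dicer1* was called higher (0.12).

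Relabelling the libraries within days gave a check of each gene alone, in an exact two-sided permutation test over 7776 relabellings, whose smallest possible p is 0.000257. The 9 p-values were not adjusted. *Ago4* (exact p = 0.000514) and *Ago3* (exact p = 0.00283) were below 0.05, and both were higher in KO in 5 of 5 days. The test was run for these 9 genes alone. The share of all genes that would pass it is not known, so passing does not set a gene apart from all genes. *Drosha* (p = 0.0877), *Ago1* (p = 0.13) and *Ago2* (p = 0.176) were lower in 4, 4 and 3 of 5 days and did not pass this exact test, nor did *Dgcr8*, *Xpo5*, *Dicer1* and *Tarbp2* (p from 0.519 to 0.997). Fibroblast markers also rose over these days by limma, in 9 of 11 tested, where 37.4% of all genes rose. At day 9 they summed to 60.7 and 69.1 RPKM in KO against 32.7 and 36.3 in WT. At day 25 that sum was 3.08 and 3.59 RPKM in KO and 5.49 and 5.70 in WT. The part of these markers in the results of *Ago3* and *Ago4* was not tested.

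The make-up of the Argonaute pool was read within each library from RPKM, so the shares also rest on the annotated exon lengths. *Ago2* was the highest Argonaute gene in all 35 libraries. Among the 20 low-share libraries, *Ago2* made up between 41.4% and 56.5% of the summed Argonaute RPKM, *Ago1* up to 40.9%, *Ago3* between 10.9% and 19.1% and *Ago4* between 1.53% and 3.79%. Among the 14 high-share WT and *Dnmt1* KO libraries the share of *Ago2* lay between 47.7% and 73.7% and that of *Ago1* between 13.8% and 23.3%. WT libraries of day 25 held the highest *Ago2* shares (73.2% and 73.7%) and the lowest *Ago3* shares (7.50% and 7.84%), with a summed level of 21.3 and 19.6 RPKM. *Dnmt1* KO libraries of day 25 held the lowest *Ago2* shares of the high-share set (50.6% and 47.7%) and the highest *Ago3* shares (25.8% and 31.1%), with a sum of 6.75 and 5.65 RPKM. *Ago1* kept a like share in both, at 18.4% and 18.6% in WT and 21.5% and 19.1% in KO.

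**Figure D3:**
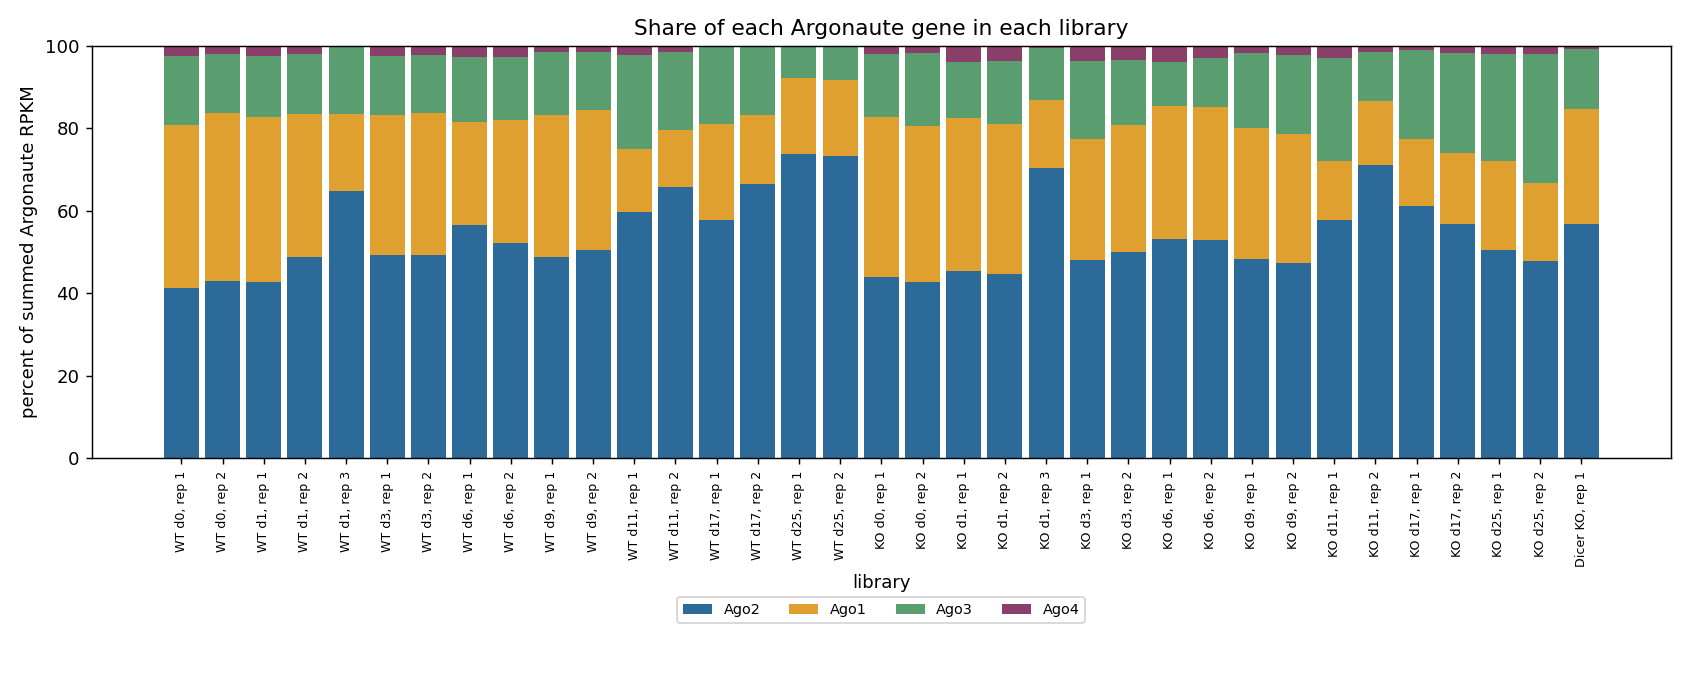
Percent of the summed Argonaute RPKM (vertical axis, from 0) held by *Ago2*, *Ago1*, *Ago3* and *Ago4* in each of the 35 libraries, in order of genotype and day. *Ago2* holds the largest part in every library, and at day 25 it is at 73.2% and 73.7% in WT against 50.6% and 47.7% in *Dnmt1* KO.

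Across the 34 WT and *Dnmt1* KO libraries, with each gene centred within its library set, *Drosha* went with *Ago1* (Pearson r = 0.855) and *Ago2* (r = 0.731), and *Ago1* with *Ago2* (r = 0.840). *Tarbp2* and *Ago3* ran in opposite directions (r = -0.574). The genes most like *Ago2* among 9563 were *Baz2a* (r = 0.967), *Ep400* (0.965), *Rere* (0.958), *Wnk1* (0.950) and *Eif4ebp2* (0.950). The genes most like *Dicer1* were *Agrn* (0.848), *Heatr5b* (0.792), *BC032203* (0.787), *4933407C03Rik* (0.770) and *Tjp1* (0.770). These are descriptions over libraries that share days, genotypes and the WT pair of day 25. For *Ago2* the r of these 5 genes was between 0.789 and 0.907 within the 20 low-share libraries and between 0.962 and 0.985 within the 14 high-share ones. For *Dicer1* it was between 0.332 and 0.762 and between 0.778 and 0.915.

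Partners of the machinery were read from 4 further lists, by counts over the 5 days beside the 57.8% of all genes called (37.4% higher, 20.4% lower) and a median of 0.06 log2 for all genes. Of 9 partners of nuclear processing and export, 7 fell, none rose and the median was -0.09 log2; *Hnrnpa1*, which binds some primary miRNAs, was among those that fell (-0.30 log2, SE 0.05, adjusted p = 6.55e-06). Of 13 tested partners of DICER1 and the Argonautes, 3 rose and 6 fell, with a median of -0.10 log2. Those that fell included *Ipo8*, an importin that binds Argonaute proteins (-0.39 log2, SE 0.05), *Prkra*, a double-stranded RNA-binding partner of DICER1 (-0.32, SE 0.06) and *Adar*, the RNA editing enzyme (-0.28, SE 0.09), while the chaperone *Hspa8* rose (0.31, SE 0.05). Their adjusted p were 1.67e-07, 6.62e-05, 0.0152 and 5.22e-06.

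Of 22 tested silencing effectors, 2 rose and 10 fell over the 5 days, with a median of -0.08 log2. Among those that fell were *Pabpc1*, the cytoplasmic poly(A)-binding protein (-0.41 log2, SE 0.09, adjusted p = 0.0004), *Tnrc6b*, a GW182 protein that bridges Argonautes to deadenylases (-0.37, SE 0.07, adjusted p = 6.84e-05) and *Cnot3*, a subunit of the CCR4-NOT deadenylase (-0.34, SE 0.09, adjusted p = 0.00277). Of 7 genes of small RNA tailing and turnover, 2 rose and 1 fell, with a median of 0.01 log2; *Pnpt1*, a mitochondrial exoribonuclease, rose by 0.33 log2 (SE 0.04, adjusted p = 1.13e-06). Without day 25, *Adar* (-0.02), *Pabpc1* (-0.11) and *Tnrc6b* (-0.17) were no longer called, *Cnot3* turned to 0.04 and *Pnpt1* was at 0.16 log2. Without the set term, of the 9 partner, effector and turnover genes named, *Hnrnpa1* and *Prkra* alone were called.

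At day 25 some effectors differed by as much as *Drosha* and *Ago1*. Of the 22, 4 rose and 11 fell, against 39.4% and 25.9% of all genes, with a median of -0.30 log2. Those lower in KO than in WT included *Cnot3* (-1.87 log2, SE 0.20, adjusted p = 1.05e-07), *Pabpc1* (-1.63, SE 0.20, adjusted p = 4.39e-07), *Tnrc6b* (-1.21, SE 0.15, adjusted p = 6.71e-07) and *Tnrc6a*, its paralogue (-1.03, SE 0.16, adjusted p = 1.02e-05). Among the partners of DICER1 and the Argonautes, 3 rose and 6 fell, *Adar* (-1.32 log2, SE 0.21, adjusted p = 1.34e-05) and *Snd1*, a nuclease found in silencing complexes (-1.07, SE 0.19, adjusted p = 5.39e-05), among them. Of the 9 nuclear partners 3 rose and 4 fell, and of the 7 turnover genes 4 rose and 2 fell. *Tnrc6a* stood between 6.25 and 6.35 RPKM in WT and between 2.73 and 3.36 in KO. These 6 calls held without the set term.

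The *Dicer* KO library was set beside the 7 high-share WT libraries. With 1 library there is no replicate check and no test. *Dicer1* itself was listed at 4.01 RPKM, within the WT range of 3.90 to 8.57. The 3.90 was that of WT day 17 replicate 1, and the other high-share WT libraries held between 5.59 and 8.57. The log2 difference of *Dicer1* from the WT mean was -0.65. Which exons the line lacks is not given in the sources used here, so the level over all exons does not check the deletion. *Dnmt1* stood at 34.8 RPKM, level with the highest WT library. None of the 8 genes was beyond the whole WT range by over 1 log2 unit, when 6.78% of all genes were that far above and 3.74% that far below. *Ago1*, at 5.25 RPKM, was above all 7 (1.12 to 3.92, median 1.87), as was *Ago3* at 2.73 (1.29 to 1.98, median 1.61), where 30.9% of all genes were above all 7. *Xpo5*, at 18.2 RPKM, was below all 7 (lowest 26.0, median 29.0), where 26.9% of all genes were. *Drosha* (11.9), *Dgcr8* (6.45), *Tarbp2* (3.69), *Ago2* (10.7) and *Ago4* (0.154 RPKM, 30 reads) were within the WT range. The WT pair of day 25 set the top of that range for *Drosha*, *Dgcr8*, *Tarbp2*, *Ago1* and *Ago2*. Among the other high-share WT libraries the highest was 10.1 RPKM for *Drosha*, 5.63 for *Dgcr8*, 1.88 for *Ago1* and 7.44 for *Ago2*. The *Dicer* KO library was above each of these, but below the 4.26 RPKM of *Tarbp2*.

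**Figure D4:**
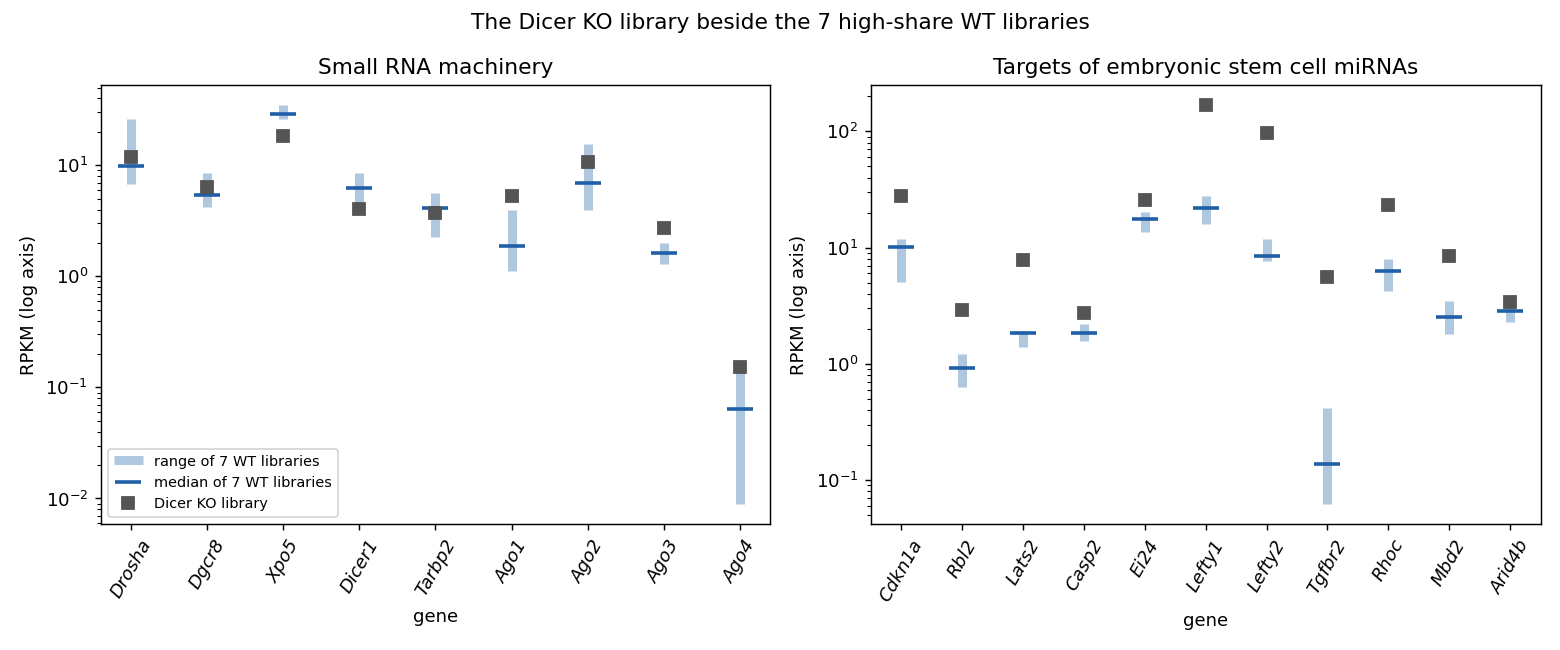
RPKM (log axis) in the *Dicer* KO library (grey squares) beside the range (blue bars) and median (blue lines) of the 7 high-share WT libraries, for the 9 genes (left) and 11 target genes of embryonic stem cell miRNAs (right). Of the targets 10 are above all 7 WT libraries, while of the 9 machinery genes 2 are above and 1 is below.

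Known targets of the ESC miRNAs shown above stood high in this library. Of 10 tested, 7 exceeded the highest WT value by over 1 log2 unit, against 6.78% of all genes, and the median difference from the WT mean was 1.78 log2 against 0.04 for all genes. *Lefty2* and *Lefty1*, inhibitors of Nodal signalling, stood at 96.4 and 169 RPKM where WT held 7.66 to 11.9 and 16.1 to 27.7. *Lats2*, a Hippo pathway kinase, stood at 7.77 (WT 1.39 to 1.90), *Cdkn1a*, the cell cycle inhibitor p21, at 27.9 (WT 5.06 to 11.8) and *Rhoc*, a small GTPase, at 23.3 RPKM (WT 4.26 to 7.90). *Tgfbr2*, a TGF-beta receptor that did not pass the filter in WT and *Dnmt1* KO cells, stood at 5.53 RPKM where WT held 0.0622 to 0.415.

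Fibroblast markers moved with these values. All 16 were above the 7 WT libraries, where 30.9% of all genes tested were. Of 11 that passed the filter, 11 were above by over 1 log2 unit, against 6.78% of all genes. Their sum over 16 was 342 RPKM against 2.19 to 5.70 in WT, with none at 0. Most of it came from *Thbs1* (145 RPKM) and *Acta2* (118 RPKM). *Col1a1* stood at 5.21 RPKM, *Dcn* at 0.380 (19 reads) and *Lum* at 0.0748 (4 reads). *Lum*, *Postn*, *Lox* and *Dcn* were at 0 in some of the WT groups. ESC markers summed to 1207 RPKM, within the WT range of 801 to 1683, but *Dppa5a* alone held 715 RPKM of this sum. Below all 7 WT libraries were *Pou5f1* (128 RPKM, lowest WT 161), *Fgf4* (26.0, lowest WT 33.4) and *Utf1* (7.14, lowest WT 25.3). *Tfcp2l1* was above all 7 (65.7, highest WT 29.5), and the remaining ESC markers were within the WT range. The part of fibroblast RNA in the levels of *Ago1*, *Ago3*, *Tgfbr2* or other genes of this library was not tested. The silencing effector *Tnrc6a* was the only one of 22 that exceeded the WT range by over 1 log2 unit, at 13.3 RPKM (WT 2.40 to 6.35), and none was that far below.

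In *Dnmt1* KO cells the same targets changed less. Of 10 tested over the 5 days, 5 rose and 1 fell, where 37.4% and 20.4% of all genes did, with a median of 0.16 log2 against 0.06 for all genes. *Lefty2* rose by 0.97 log2 (SE 0.04, adjusted p = 3.91e-15), *Cdkn1a* by 0.81 (SE 0.07, adjusted p = 2.45e-09) and *Lats2* by 0.30 (SE 0.04, adjusted p = 5.57e-06, not called without the set term). At day 9 *Lefty2* held 8.74 and 9.97 RPKM in WT and 28.2 and 28.6 in KO. At day 25 it averaged 17.4 ± 0.521 RPKM in KO (SD, n = 2) against 10.5 and 11.9 in WT, and *Cdkn1a* 11.5 ± 0.557 in WT and 11.8 ± 0.0714 in KO. Of the 10 targets 6 were called at day 17, all higher, where 40.2% of all genes were called in either direction. At day 25 1 rose and 3 fell, where 39.4% and 25.9% of all genes did.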

How the data were processed

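Ribosome-depleted total RNA from mouse ESCs was sequenced as 35 libraries. Per the study's methods and the submitters' notes, the authors trimmed reads (Trim Galore 0.3.5), aligned them (TopHat2 2.0.11, NCBIM37), dropped low mapping qualities and quantified genes in SeqMonk. The deposited values are linear RPKM with no further scaling, where the methods name log2 RPM. Exon lengths of GENCODE vM1 turned 99.5% to 99.7% of values below 20 reads in each library into whole reads (within 0.1), which gave each library's depth; exon reads were between 5.10 and 17.5 mega-reads. Read numbers and the floor of 3 reads cover counting error only; libraries of 1 group differed by more than counting error (chi-square per degree of freedom 1.40 to 49.9 within a set).

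Values were tested as log2(RPKM + 0.1) with limma 3.58.1 (R 4.3.3; lmFit, eBayes with trend) on group means of the 34 WT and *Dnmt1* KO libraries plus a term for library set, which only day 1 spans (17 residual degrees of freedom). Fold changes on this scale understate low genes. Calls are Benjamini-Hochberg adjusted p below 0.05 over 11615 genes. Scripts were tested on simulated data. Python 3.11.15 was used for tables.

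The 9 genes, lists and tests were chosen with earlier results of these data known. Named genes were *Dnmt1*, the 9 genes, from the lists up to 12 called genes over the 5 days, 6 at day 25 and 6 in the *Dicer* KO library by size, and the 5 most like *Dicer1* and *Ago2*. Alternatives left out the set term, the third day 1 pair, other groups, the filter or single libraries, or changed the pseudocount, centring, block or values.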

Additional observations from a re-analysis of the deposited data

Results flagged for a closer look

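The KO minus WT difference changed between day 9 and day 25, by a test of the difference itself, for *Drosha* (-1.29 log2), *Dgcr8* (-0.34), *Tarbp2* (-0.71), *Ago1* (-1.31) and *Ago2* (-2.11). At day 9 none of the 5 was called and the WT and KO libraries of *Drosha* held 6.22 and 5.86 against 5.18 and 5.09 RPKM. At day 25 the WT libraries of *Drosha*, *Ago1* and *Ago2* were the highest among all WT and *Dnmt1* KO libraries. The call for *Dgcr8* was lost when any 1 of the 8 libraries of these days was left out.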

How the results depend on the processing

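Of the 8 tested genes, the number called changed with the processing as follows. Without the set term it was 0 at day 3 (1 as reported), 0 at day 6 (2), 0 at day 17 (1), 3 at day 25 (6), 1 over the 5 days (4), 1 for day 25 against day 9 (5), 0 for WT day 9 against 0 (1) and 4 for WT day 25 against 11 (7). Without the third day 1 pair it was 2 for WT day 9 against 0. With only the groups compared it was 1 at day 9 (0), 0 at day 17 and 4 for WT day 9 against 0. With median centring it was 1 at day 11 (0), 3 at day 17 and 2 for WT day 9 against 0. With a pseudocount of 1 it was 1 at day 6, and without day 25, added after the data were seen, 1 over the 5 days. Against the WT of day 11, 17 or 25 alone, 1 gene was beyond in the *Dicer* KO library (0). With voom 6 genes were called at day 25 too, *Dicer1* in place of *Xpo5*. The cause was not tested.

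Differences that changed sign were small. Without day 25 they were *Ago2* (0.018 log2), *Dgcr8* (0.077), *Tarbp2* (0.0841) and *Cnot3* (0.0368) over the 5 days. *Dicer1* over the 5 days was -0.0137 with median centring, *Ago3* for day 25 against 9 was 0.00328 with a pseudocount of 1, and *Xpo5* for that comparison was -0.0509 with voom.

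Leaving out 1 library at a time gave 0 to 1 genes at day 3, 1 to 2 at day 6, 0 to 6 at day 11, 0 to 2 at day 17, 4 to 6 at day 25, 4 to 5 over the 5 days and 0 to 1 for WT day 9 against 0. A lone remaining library was assumed to vary like the other groups. *Dgcr8* over the 5 days ran from -0.0425 to 0.0419 log2, *Xpo5* from -0.0232 to 0.00952, and *Xpo5* for day 25 against 9 from -0.0114 to 0.152.

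With the replicate number as a block, 6 genes were called at day 25, 4 over the 5 days and 1 at day 3, and no call changed. Same-numbered WT and KO libraries correlated at -0.159 to 0.26 in their deviations, so the numbers do not pair them.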
